A study of Rattus norvegicus with 6 samples.

Results

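The 10 miRNAs described here are the listed products of a pair of related miRNA gene clusters, miR-17-92 and miR-106b-25. They were taken by name from a table of 867 miRNAs counted in serum exosomes of rats, and all 10 were found, 6 of miR-17-92 (rno-miR-17-5p, rno-miR-18a-5p, rno-miR-19a-3p, rno-miR-20a-5p, rno-miR-19b-3p and rno-miR-92a-3p) and 4 of miR-106b-25 (rno-miR-106b-5p, rno-miR-106b-3p, rno-miR-93-5p and rno-miR-25-3p). The rat prefix rno is left out from here on. Exosomes, the vesicles shed by many cell types into blood with RNA inside, were collected from serum by ultracentrifugation. The NXT-Exo group (5 libraries) came from male SD rats on a normal diet given Naoxintong Capsule (NXT), a Chinese herbal medicine, by gavage at 1000 mg/kg/d, and the Ctl-Exo group (1 library, replicate 5) from rats given saline at 5 mL/kg/d. The length of dosing is uncertain: it was 7 days by the sample titles, but by a treatment field it was 7, 8, 9, 10 and 11 days in the order of the NXT-Exo replicates, and 11 days in the Ctl-Exo library. Each group had 10 rats, and whether a library holds the serum of 1 rat or of a pool is not given in the sources used here. p-values therefore measure only the spread between these libraries. Values of the remaining control libraries were not analysed here.

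A cluster of this kind is transcribed as a single primary transcript, from which each hairpin is cut and then opened into a 5p and a 3p strand, so hairpins of a cluster start from equal copy numbers. The levels of the mature miRNAs can still differ, since cutting, choice of strand and stability differ from hairpin to hairpin. miR-17-92 is known for driving growth and survival of blood and tumour cells and for its part in the vascular endothelium, where miR-92a is a restraint on new vessel growth. miR-106b-25 lies in an intron of the replication gene Mcm7, and its miRNAs are known for holding down cell cycle inhibitors.

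The sequences below are shown because they define the families compared later. They are written 5′ to 3′ as DNA, as the authors listed them, with bases 2 to 8, the seed that pairs with target mRNAs, in capitals. All 10 were identical to the mature rat miRNAs of RefSeq after exchange of U for T. The 6 miRNAs of miR-17-92, in the order of their hairpins, were:
miR-17-5p: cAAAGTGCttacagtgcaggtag
miR-18a-5p: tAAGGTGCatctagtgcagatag
miR-19a-3p: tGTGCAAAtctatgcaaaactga
miR-20a-5p: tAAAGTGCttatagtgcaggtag
miR-19b-3p: tGTGCAAAtccatgcaaaactga
miR-92a-3p: tATTGCACttgtcccggcctg
The 4 miRNAs of miR-106b-25 were:
miR-106b-5p: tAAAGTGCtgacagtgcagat
miR-106b-3p: cCGCACTGtgggtacttgctgc
miR-93-5p: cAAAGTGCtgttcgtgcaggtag
miR-25-3p: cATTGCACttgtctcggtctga

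The clusters shared 2 seeds. AAAGTGC was the seed of miR-17-5p and miR-20a-5p in one cluster and of miR-106b-5p and miR-93-5p in the other. ATTGCAC was the seed of miR-92a-3p and of miR-25-3p. GTGCAAA (miR-19a-3p and miR-19b-3p) and AAGGTGC (miR-18a-5p) were found in miR-17-92, and CGCACTG in miR-106b-3p. Positions are counted from 1 at the 5′ end. miR-19b-3p differed from miR-19a-3p by T11C alone, and miR-20a-5p from miR-17-5p by C1T and C12T. From miR-92a-3p to miR-25-3p the changes over the 21 shared positions were T1C, C14T and C18T. How reads that fit several such sequences were assigned is not given in the sources used here, so values of near-identical members are uncertain to that extent.

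In the RefSeq annotation of the rat assembly GRCr8, the 6 hairpins of miR-17-92 lie within 785 bases on the plus strand at chr15:98587848-98588632, in the order Mir17, Mir18a, Mir19a, Mir20a, Mir19b1 and Mir92a1. The 3 hairpins of miR-106b-25 (Mir106b, Mir93 and Mir25) lie within 494 bases on the minus strand at chr12:22156641-22157134, inside the span of Mcm7. The submitters' processing notes name Rnor 6.0, so these positions apply to GRCr8 and not to their alignment. A related cluster, miR-106a-363, has 5 hairpins within 871 bases on the minus strand at chrX:137342777-137343647. RefSeq lists the mature miR-17-5p, miR-19b-3p and miR-92a-3p also for hairpins of that cluster (Mir106a, Mir19b2 and Mir92a2), so reads of these 3 miRNAs cannot be told apart by cluster, whereas the other 7 members have 1 hairpin each.

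The libraries held 1168686 to 3781718 listed reads, with the lowest total in NXT-Exo 4, and 1890463 in Ctl-Exo 5. Every pair of libraries differed by more than counting noise (chi-square per degree of freedom of 45.5 to 321). NXT-Exo 1 stood apart, with 159 to 321 against the other libraries, which were at 45.5 to 117 among themselves. Its summed level of 2 liver miRNAs was 24340 CPM (reads scaled to a common library total with TMM factors), while NXT-Exo 2 to 5 had 10880 to 12970 CPM and Ctl-Exo 5, below all of them, had 7589 CPM. The summed level of the red blood cell list without miR-486 was lowest in NXT-Exo 1 (4500 CPM), highest in NXT-Exo 4 (7301 CPM) and 5614 to 6439 CPM in the other 4 libraries. Of that list, miR-451-5p had 1632 CPM in NXT-Exo 1, 3239 CPM in NXT-Exo 4 and 1972 to 2280 CPM in the others. With miR-486, the list of 5 summed to 160200 to 263300 CPM in the NXT-Exo libraries and 214000 CPM in Ctl-Exo 5. The whole list was lowest in NXT-Exo 1, next lowest in NXT-Exo 4 (207400 CPM) and highest in NXT-Exo 3. The list of 5 platelet and white blood cell miRNAs summed to 21630 to 25490 CPM in the NXT-Exo libraries and 26560 CPM in Ctl-Exo 5. Every miRNA of these lists had reads in all libraries, and their part in the results below was not tested.

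Among the members of one cluster, the listed levels were very unequal. The mean level over the 6 libraries fell 7260-fold from the highest to the lowest member of miR-17-92 (miR-92a-3p to miR-18a-5p) and 304-fold from miR-25-3p to miR-106b-5p in miR-106b-25. These lowest members are the strands of Mir18a and Mir106b with fewer reads, so the folds span strands as well as hairpins. Between the strands with more reads, miR-92a-3p was 6720-fold above miR-19a-3p and miR-25-3p 18.8-fold above miR-93-5p, as geometric means of the ratio. Each read spans the whole miRNA of 21 to 23 bases, so CPM was not divided by length. How well each sequence is ligated and amplified was not measured, so folds between members are folds in reads. Of the 45 pairs of members, 43 were in the same order in every library, beside 81.9% of all pairs among miRNAs that averaged 10 reads or more. With 6 libraries the exact two-sided sign-flip permutation test of the log2 ratio cannot go below p = 0.0312, and these 43 pairs all had that value (0.0327 after adjustment over the 45 pairs).

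miR-92a-3p, the last hairpin's product in miR-17-92, had 213857, 185288, 129334, 60258 and 198105 reads in NXT-Exo 1 to 5 and 100022 reads in Ctl-Exo 5. On the CPM scale these were 71300, 55800, 58150, 47110 and 51670 in the NXT-Exo libraries and 54460 in Ctl-Exo 5. It was the fourth most abundant of the 867 miRNAs by mean CPM and took 5.16% to 7.36% of all listed reads, the highest share being that of NXT-Exo 1. Within the summed reads of the 6 miR-17-92 members it made up 96.6% to 97.6%.

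miR-25-3p, which carries the same seed in the other cluster, had 39349, 48908, 32774, 22924 and 50918 reads in NXT-Exo 1 to 5 and 28144 in Ctl-Exo 5. Its levels were 13120, 14730, 14740, 17920 and 13280 CPM in the NXT-Exo libraries and 15320 CPM in Ctl-Exo 5. It ranked 11 of 867 and made up 87.3% to 89.5% of the reads of its cluster. So in each cluster the product with the seed ATTGCAC had most of the reads in every library. miR-92a-3p was 3.79-fold higher than miR-25-3p on average, by 5.43-fold in NXT-Exo 1, 2.63-fold in NXT-Exo 4 and 3.55- to 3.95-fold in the other 4.

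The middle of the order was held by 4 miRNAs. miR-106b-3p had 822, 1052, 1227, 1318 and 1028 CPM in NXT-Exo 1 to 5 and 1135 CPM in Ctl-Exo 5. miR-20a-5p, of the growth-promoting AAAGTGC family, had 1212, 1014, 1073, 992 and 879 CPM in the NXT-Exo libraries and 1412 CPM in Ctl-Exo 5. Their means were both 1097 CPM over the 6 libraries, and miR-106b-3p was the higher of this pair in 4 of 6 libraries, so their order could not be told (exact sign-flip permutation p = 1.0). miR-93-5p followed with 672, 802, 865, 834 and 704 CPM in the NXT-Exo libraries and 851 CPM in Ctl-Exo 5, below miR-20a-5p by 1.38-fold and in every library. miR-17-5p, the first hairpin's product, had 455, 383, 443, 315 and 326 CPM in the NXT-Exo libraries and 416 CPM in Ctl-Exo 5. It was lower than its near-identical cluster neighbour miR-20a-5p by 2.81-fold on average (2.42- to 3.39-fold, 6 of 6 libraries).

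The lowest members were miR-19b-3p, miR-106b-5p, miR-19a-3p and miR-18a-5p. miR-19b-3p, known as the main oncogenic product of miR-17-92, had 206, 225, 171, 74 and 199 reads in NXT-Exo 1 to 5 and 142 in Ctl-Exo 5, a mean of 66.7 CPM. miR-106b-5p had 146, 156, 100, 57 and 156 reads in the NXT-Exo libraries and 124 in Ctl-Exo 5, a mean of 48.9 CPM. miR-19b-3p was above miR-106b-5p in every library, by 1.37-fold on average. miR-19a-3p, which shares the seed of miR-19b-3p, had 19, 31, 20, 7 and 27 reads in the NXT-Exo libraries and 25 in Ctl-Exo 5, and was 7.97-fold below miR-19b-3p on average (5.59- to 10.6-fold). miR-18a-5p had 11, 21, 38, 3 and 45 reads in the NXT-Exo libraries and 10 in Ctl-Exo 5. The order of miR-19a-3p and miR-18a-5p was not the same in all libraries (miR-19a-3p higher in 4 of 6, exact sign-flip permutation p = 0.375, adjusted p = 0.384). The plot of levels by library shows how far apart the members of a cluster lie compared with the spread of each over libraries.

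**Figure D1:**
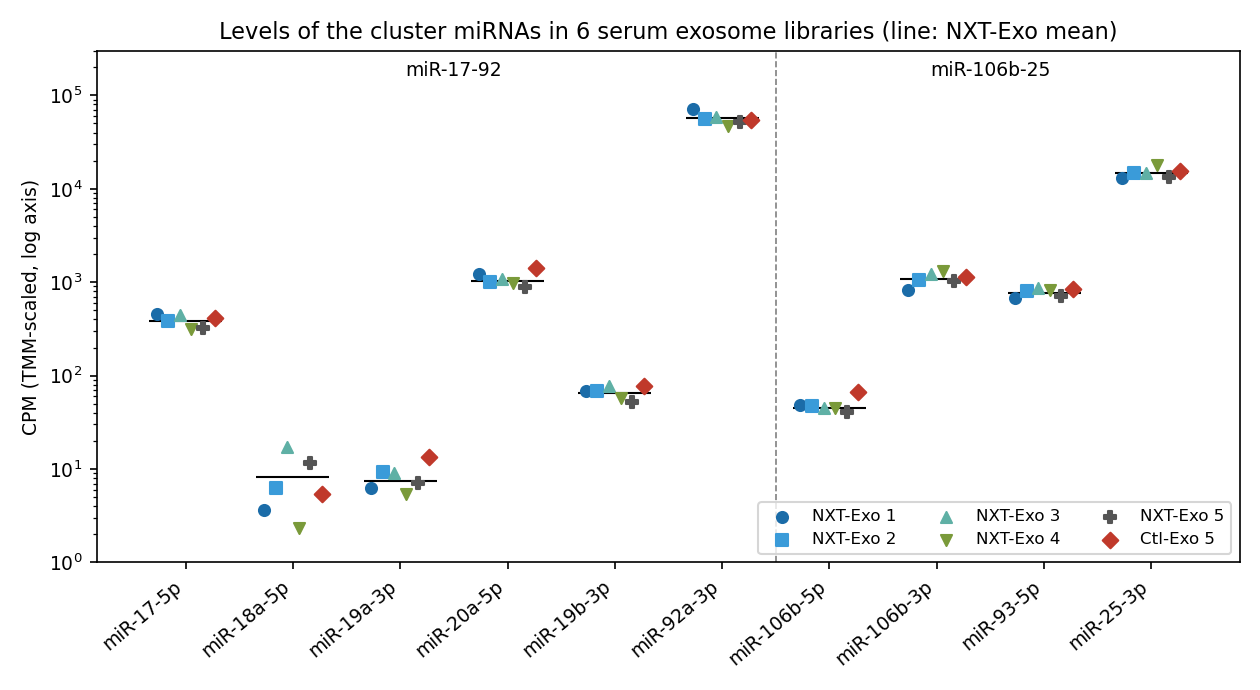
Level of each cluster miRNA (CPM scaled by TMM factors, log axis) in the 5 NXT-Exo libraries and Ctl-Exo 5, in hairpin order within each cluster, with a black line at the NXT-Exo mean. miR-92a-3p and miR-25-3p lie at 47110 to 71300 and 13120 to 17920 CPM, and the points of miR-18a-5p and miR-19a-3p lie at the bottom, between 2.35 and 17.1 CPM.

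Summed by seed, the members and all other listed miRNAs with ATTGCAC took 6.97% to 9.05% of the listed reads. Their sum was 75210 ± 8013 CPM in the NXT-Exo libraries (SD, n = 5) and 73100 CPM in Ctl-Exo 5, and the members made up 94.2% to 96.2% of it. The AAAGTGC seed, which recognises transcripts of many cell cycle inhibitors, summed to 2264 ± 190 CPM in the NXT-Exo libraries (1979 to 2458 CPM) and to 2776 CPM in Ctl-Exo 5, which lay above all 5 NXT-Exo libraries. For GTGCAAA the sums were 72.0 ± 10.9 CPM (58.9 to 85.9 CPM) and 90.9 CPM, also with Ctl-Exo 5 above the NXT-Exo range. Ctl-Exo 5 lay within it for the other 3 seeds, with CGCACTG at 848 to 1339 and 1154 CPM and AAGGTGC at 3.13 to 17.1 and 5.45 CPM. Of single miRNAs, 15.3% had Ctl-Exo 5 above the NXT-Exo range and 30.3% outside it, so such a place alone shows no difference. Most of the gap in the AAAGTGC sum was that of miR-20a-5p, with 1412 CPM in the control library against a mean of 1034 CPM after NXT. miR-106b-5p was also above the NXT-Exo range, but miR-17-5p and miR-93-5p lay within it, so the gap was not shared by the whole family.

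The hairpins differed in the strand found in the exosomes. Mir106b is the single hairpin with both strands among the 10 members, and its 3p strand had 94.4% to 96.7% of the reads of both strands in the NXT-Exo libraries and 94.4% in Ctl-Exo 5 (95% Wilson interval 93.3% to 95.3%, which covers counting error only). Reads of miR-106b-3p outnumbered those of miR-106b-5p by 22.4-fold on average (16.8- to 29.3-fold). Mir25 was likewise read mainly from its 3p strand, with miR-25-3p 154-fold above miR-25-5p, which had 278, 407, 217, 95 and 386 reads in NXT-Exo 1 to 5 and 172 in Ctl-Exo 5. For Mir93, between them, the 5p strand dominated and the 3p strand made up 14.0% to 17.7%.

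In miR-17-92, Mir17 and Mir20a were read from the 5p strand and Mir19a and Mir92a1 from the 3p strand. Reads of miR-17-5p and miR-92a-3p can also come from Mir106a and Mir92a2. The strand shares of Mir17 and Mir92a1 are uncertain to that extent. miR-20a-5p had 16622 reads over the 6 libraries against 15 of miR-20a-3p, and miR-92a-3p 886864 against 9 of miR-92a-1-5p. Mir18a went against its listed member: miR-18a-3p had 95, 86, 47, 31 and 91 reads in NXT-Exo 1 to 5 and 58 in Ctl-Exo 5, more than miR-18a-5p in every library (4.01-fold on average). The 3p share of Mir18a ranged from 55.3% to 91.2%, and both ends were NXT-Exo libraries. The strand order was the same in 6 of 6 libraries for each of these 8 hairpins (exact sign-flip permutation p = 0.0312, adjusted p = 0.0347 over 10 comparisons).

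**Figure D2:**
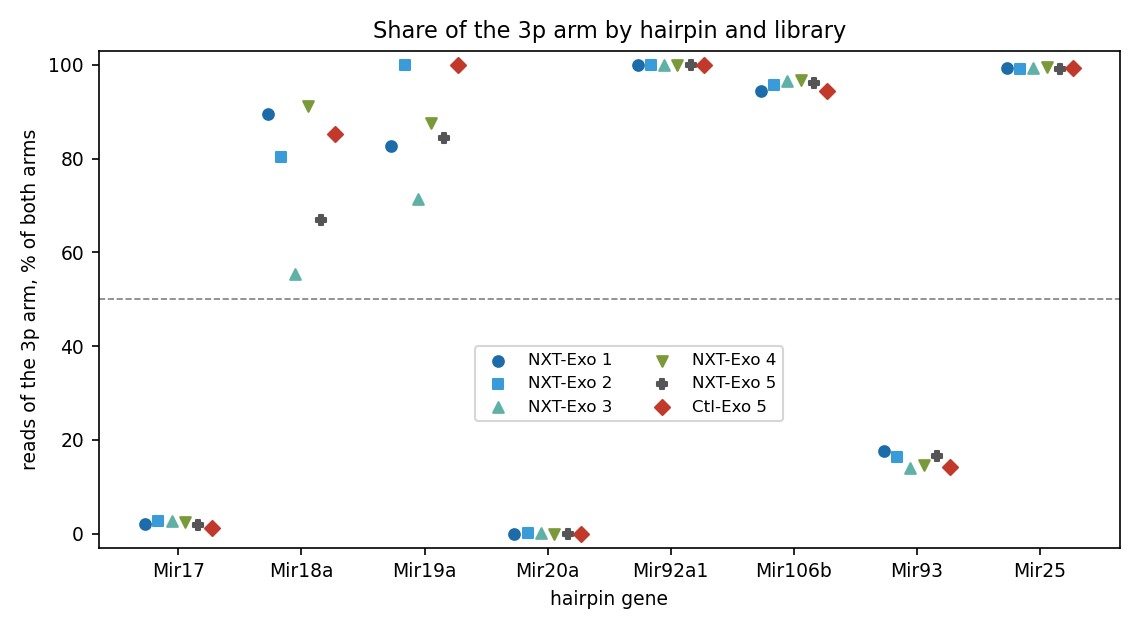
Reads of the 3p strand as a percentage of both strands of each hairpin (vertical axis) in each of the 6 libraries. Reads of the main strands of Mir17 and Mir92a1 can also come from X-linked hairpins. The points of Mir17, Mir20a and Mir93 lie under the dashed line at 50% and those of Mir18a, Mir19a, Mir92a1, Mir106b and Mir25 above it, with Mir18a spread from 55.3% to 91.2%.

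Of the X-linked miR-106a-363 cluster, the most abundant product that neither main cluster can give was miR-363-3p, which also carries ATTGCAC. It had 1066, 1455, 1062, 697 and 1657 reads in NXT-Exo 1 to 5 and 998 in Ctl-Exo 5, a mean of 465 ± 72.8 CPM (SD over the 6 libraries). miR-20b-5p, with the seed AAAGTGC, had 4 to 15 reads in the NXT-Exo libraries and 12 in Ctl-Exo 5. The 3p strand of Mir106a, listed as miR-17-2-3p, had 459 reads in all against 134 of miR-17-1-3p from Mir17. So the cluster that shares 3 mature sequences with miR-17-92 was itself represented in these exosomes.

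Members of a cluster were next compared by covariation, with the limit that miR-17-5p, miR-19b-3p and miR-92a-3p can also come from the X-linked transcript. Where a pair rises and falls together by the same fold, the ratio of their reads is the same in each library. The spread of this ratio was taken as the SD over libraries of the log2 ratio, which needs no scaling between libraries. This SD is also low where both miRNAs vary little, so a low value alone does not show covariation. Over all 26106 pairs of the 229 miRNAs that averaged 100 reads or more, the median SD was 0.34. Within miR-106b-25 the median was 0.19 over 6 pairs (0.11 to 0.35). Within miR-17-92 the median was 0.36 over 15 pairs, but miR-18a-5p and miR-19a-3p had few reads, and counting alone gives a median SD of 0.34 for these pairs. With the 4 members that had at least 100 reads on average (miR-17-5p, miR-20a-5p, miR-19b-3p and miR-92a-3p), the median was 0.17 over 6 pairs (0.120 to 0.235). Between the clusters it was 0.33 over 24 pairs, and 0.29 over the 16 pairs with enough reads. Without NXT-Exo 1, the library that stood apart, the medians over pairs with enough reads were 0.17 in miR-17-92, 0.18 in miR-106b-25 and 0.25 between the clusters.

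In NXT-Exo 1 and NXT-Exo 4 the abundant members of the clusters deviated in opposite directions, with exceptions in each. In NXT-Exo 1, miR-92a-3p, miR-17-5p and miR-20a-5p lay 0.35, 0.24 and 0.16 above their mean over the 6 libraries on the log2 scale, whereas miR-106b-3p, miR-93-5p and miR-25-3p lay at -0.40, -0.22 and -0.17. There miR-106b-5p was at 0.01 and miR-19b-3p at 0.06, and the scarce miR-18a-5p and miR-19a-3p at -0.67 and -0.32, so that the mean deviation of miR-17-92 was -0.03. In NXT-Exo 4 the order was turned, with miR-17-5p, miR-92a-3p and miR-19b-3p at -0.29, -0.25 and -0.19 and miR-106b-3p, miR-25-3p and miR-93-5p at 0.28, 0.28 and 0.09, but with miR-106b-5p at -0.11. These are the libraries with the lowest and the highest level of the red blood cell list without miR-486, but with miR-486 the list was highest in NXT-Exo 3 and NXT-Exo 4 was second lowest. In the remaining libraries the clusters did not part in this way. In NXT-Exo 5 all 8 members with at least 100 reads on average were below their mean. The median deviation of all members was positive for both clusters in NXT-Exo 3 (0.165 in miR-17-92 and 0.069 in miR-106b-25) and in Ctl-Exo 5 (0.167 and 0.091). In NXT-Exo 2 it was -0.007 and -0.02.

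**Figure D3:**
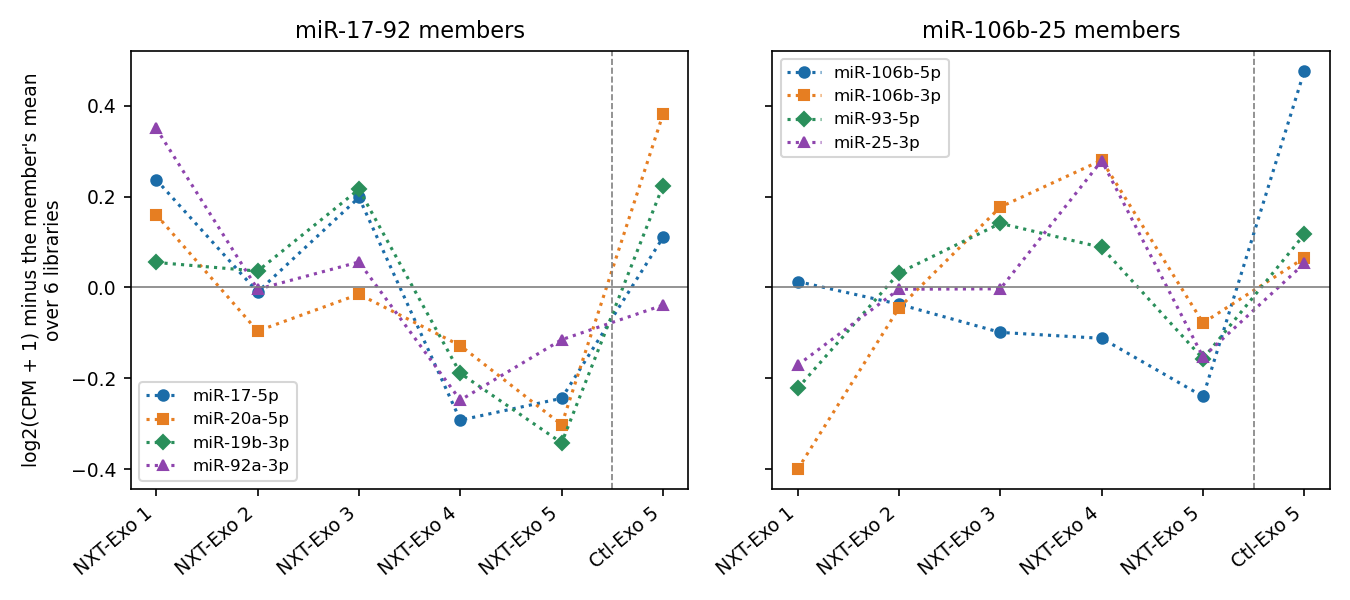
Deviation of log2(CPM + 1) from the miRNA's mean over the 6 libraries (vertical axis), by library, for the 4 miR-17-92 members (left) and the 4 miR-106b-25 members (right) with at least 100 reads on average. Dotted lines only join the points of 1 miRNA. NXT-Exo 1 lies at 0.06 to 0.35 on the left, and at -0.40 to -0.17 on the right except for miR-106b-5p at 0.01.

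Pearson correlations of log2(CPM + 1) over the 6 libraries had a median of 0.45 within miR-17-92 (0.75 over the 6 pairs with enough reads, all above 0, a restriction chosen here after seeing the data), 0.54 within miR-106b-25 and 0.02 between the clusters, beside 0.00 over all pairs of abundant miRNAs. Without NXT-Exo 1 the Pearson medians over pairs with enough reads were 0.77, 0.57 and 0.23. Median Spearman correlations over all pairs and libraries were 0.49, 0.43 and 0.06. By the exact permutation test 5 of the 45 pairs had an unadjusted p under 0.05, all among the 28 pairs of members with enough reads, beside 7.09% of all pairs of abundant miRNAs. No pair passed after adjustment over the 45 (lowest adjusted p = 0.188). miR-17-5p and miR-92a-3p had r = 0.84 and rho = 0.94 (exact permutation p = 0.0097, adjusted p = 0.188), with r = 0.71 without the 2 libraries farthest from the median. Their read ratio stayed between 131 and 159. miR-17-5p and miR-19b-3p had the lowest SD of ratio in miR-17-92 (0.12, with 0.13 given by counting), r = 0.86 and rho = 0.71 (exact permutation p = 0.0417, adjusted p = 0.375), but r = 0.27 without the 2 farthest libraries.

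In miR-106b-25, the correlations among miR-106b-3p, miR-93-5p and miR-25-3p were all above 0, though none passed adjustment. The pair of miR-106b-3p and miR-93-5p had r = 0.87 and rho = 0.83 (exact permutation p = 0.0125, adjusted p = 0.188; r = 0.84 without the 2 farthest libraries). The reads of miR-106b-3p were 1.22, 1.31, 1.42, 1.58 and 1.46 times those of miR-93-5p in NXT-Exo 1 to 5 and 1.33 times in Ctl-Exo 5. For miR-106b-3p and miR-25-3p r was 0.83 and rho 0.94 (exact permutation p = 0.0375, adjusted p = 0.375; r = 0.59 without the 2 farthest). For miR-93-5p and miR-25-3p r was 0.74 and rho 0.77 (exact permutation p = 0.104, adjusted p = 0.481). Their r was -0.03 without the 2 farthest libraries, and 0.62 to 0.96 without each library in turn.

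The strands of Mir106b had a correlation near 0. Cut from 1 hairpin, miR-106b-5p and miR-106b-3p had r = -0.01 (exact permutation p = 0.99) and an SD of log2 ratio of 0.35, against 0.14 from counting. miR-106b-3p had 16.9, 22.4, 27.3, 29.6 and 25.3 times the reads of miR-106b-5p in NXT-Exo 1 to 5 and 16.8 times in Ctl-Exo 5. Leaving out each library in turn gave r of -0.40 to 0.15. The closest partner of miR-106b-5p was miR-20a-5p, which has the same seed and lies in the other cluster: r = 0.92 and rho = 0.94 (exact permutation p = 0.0042, adjusted p = 0.188), with r = 0.75 without the 2 libraries farthest from the median and 0.90 to 0.97 without each library in turn. The reads of miR-20a-5p were 24.9, 21.6, 23.9, 22.3 and 21.6 times those of miR-106b-5p in NXT-Exo 1 to 5 and 20.9 times in Ctl-Exo 5. This SD of 0.10 was the lowest of all 45 pairs and lay under the 0.14 that counting gives.

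**Figure D4:**
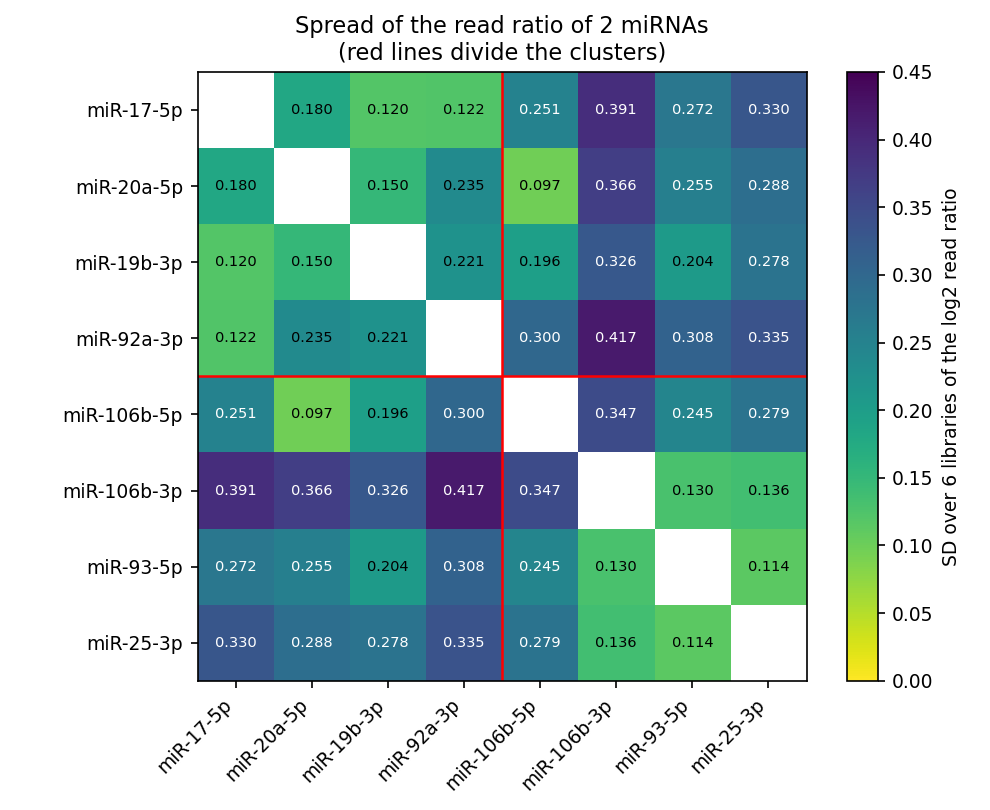
SD over the 6 libraries of the log2 read ratio for each pair of the 8 members with at least 100 reads on average, printed in each cell and shown by colour, with red lines between the clusters. The cells among miR-106b-3p, miR-93-5p and miR-25-3p hold 0.11 to 0.14 and those among the miR-17-92 members 0.120 to 0.235, while miR-106b-5p has 0.10 with miR-20a-5p and 0.35 with miR-106b-3p.

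The widest ratio between abundant members was that of miR-92a-3p to miR-106b-3p, which went from 35.7 in NXT-Exo 4 to 86.7 in NXT-Exo 1 (SD of log2 ratio 0.42). Their r was -0.81 and rho -0.49 (exact permutation p = 0.0653, adjusted p = 0.42). Without each library in turn r was -0.93 to -0.36, weakest without NXT-Exo 1. It was 0.79 without the 2 libraries farthest from the median, so its sign was not kept. The SD fell to 0.22 without NXT-Exo 1. For miR-92a-3p and miR-25-3p, the seed partners, r was -0.69 and rho -0.60 (exact permutation p = 0.139, adjusted p = 0.481). It was -0.96 to -0.43 without each library in turn but 0.67 without the 2 libraries farthest from the median, so its sign was not kept either.

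Outside the clusters, 221 miRNAs were compared with the geometric mean of the cluster members that had at least 100 reads on average. This left miR-18a-5p and miR-19a-3p out of miR-17-92. For miR-17-92 the miRNAs of least varying ratio were miR-1983-z (SD 0.10), miR-425-5p (0.12), miR-421-y, miR-383-5p and miR-4454-z (about 0.14 each). For miR-106b-25 they were miR-185-5p and miR-142-5p (0.06 each), let-7g-5p, miR-1839-5p and miR-16-5p (0.07 each). Of these, miR-16-5p stands on the red blood cell list and miR-142-5p on the list of platelet and white blood cell miRNAs. No other miRNA of those lists was among the ones named here.

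Last, NXT-Exo was compared with Ctl-Exo, the question of the study being which exosomal miRNAs differ after NXT. No member was called by edgeR's quasi-likelihood test at an adjusted p under 0.05, and 0.0% of the 865 miRNAs with reads were. This fit takes the spread from NXT-Exo and assumes that the lone Ctl-Exo library varies like them. At an unadjusted p under 0.05 edgeR gave 1 of the 10 members (miR-20a-5p, lower in NXT-Exo) and 5.32% of all miRNAs, 1.73% being lower in NXT-Exo. DESeq2 gave no adjusted p under 0.05 for any miRNA, and an unadjusted p under 0.05 for 3.82% of them, miR-20a-5p among the members. No member was 2-fold apart with Ctl-Exo 5 outside the NXT-Exo range. Of all miRNAs 11.9% were, 4.97% higher and 6.94% lower in NXT-Exo, and 6.85% of those that averaged 10 reads or more, so 0 of 10 is near the background. An exact permutation of 5 libraries against 1 cannot go below p = 0.167, so no such p is given.

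Ctl-Exo 5 lay outside the NXT-Exo range for 4 of the 10 members, and for 30.3% of all miRNAs. It was above all 5 NXT-Exo libraries for these 4 (15.3% of all miRNAs) and below them for 0 of 10 (15.0% of all miRNAs). The miRNAs were miR-20a-5p, miR-106b-5p, miR-19a-3p and miR-19b-3p. Of these, miR-20a-5p had 1034 ± 122 CPM in the NXT-Exo libraries (SD, n = 5) and 1412 CPM in the control library (95% Wilson interval 1359 to 1468 CPM), 1.37-fold more. Its log2 difference by edgeR was -0.45 ± 0.22 (SE), with an unadjusted edgeR p of 0.0486 and an adjusted p of 0.81. miR-106b-5p had 45.2 ± 3.0 CPM against 67.5 CPM (56.6 to 80.5), 1.49-fold more, and an edgeR log2 difference of -0.58 ± 0.33 (adjusted p = 0.81). Both are of the AAAGTGC family, but the other 2 members of it lay within the range: miR-17-5p at 384 ± 64.6 and 416 CPM and miR-93-5p at 776 ± 83.6 and 851 CPM.

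The miR-19 pair had lower levels and wider errors. miR-19a-3p was at 6.33, 9.34, 8.99, 5.47 and 7.04 CPM in NXT-Exo 1 to 5 and at 13.6 CPM in the control library (95% Wilson interval 9.22 to 20.1), 1.76-fold more (edgeR log2 difference -0.86 ± 0.63, adjusted p = 0.81). Of the 5 NXT-Exo libraries, 1 lies inside that interval, which covers counting error of Ctl-Exo 5 alone. miR-19b-3p was at 64.6 ± 9.8 CPM in the NXT-Exo libraries and 77.3 CPM in Ctl-Exo 5 (65.6 to 91.1), and 3 of the 5 NXT-Exo libraries lay inside the interval. The highest of them, NXT-Exo 3 at 76.9 CPM, almost reached Ctl-Exo 5, so its place outside the range is within counting error.

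For the liver list too, at 7589 CPM in Ctl-Exo 5 and 10880 CPM or more in every NXT-Exo library, Ctl-Exo 5 lay outside the NXT-Exo range. So it did for the platelet and white blood cell list, at 26560 CPM in Ctl-Exo 5 and 21630 to 25490 CPM in the NXT-Exo libraries. Of single miRNAs, 30.3% had Ctl-Exo 5 outside that range. In the platelet and white blood cell list, miR-142-5p alone had a mean of 18230 CPM over the 6 libraries. For the red blood cell list Ctl-Exo 5 lay within the NXT-Exo range. The part of these lists in the differences was not tested. For miR-92a-3p, miR-25-3p and miR-106b-3p, Ctl-Exo 5 lay within the NXT-Exo range, and its gap from the NXT-Exo mean was smaller than the SD. miR-92a-3p was at 56810 ± 9129 CPM in the NXT-Exo libraries and 54460 CPM in Ctl-Exo 5 (edgeR log2 difference 0.06 ± 0.27, adjusted p = 0.95), and without NXT-Exo 1 its mean difference of log2(CPM + 1) went from 0.05 to -0.04. miR-25-3p was at 14760 ± 1928 and 15320 CPM, and miR-106b-3p at 1090 ± 192 and 1135 CPM (edgeR adjusted p = 0.95 for both). Of miR-18a-5p, 8.23 ± 6.12 CPM were found in the NXT-Exo libraries and 5.45 CPM in Ctl-Exo 5 (2.96 to 10.0), an edgeR log2 difference of 0.62 ± 0.88 (adjusted p = 0.83). In all, 8 of 10 members had a lower mean in NXT-Exo, as had 43.0% of all 865 miRNAs and 51.0% of those that averaged 10 reads or more. The members had a median log2 difference of -0.14 beside 0.10 over all 865 miRNAs and -0.01 over the 467 that averaged 10 reads or more. Under each scaling tried the signs were kept, and they changed for miR-92a-3p and miR-106b-3p without NXT-Exo 1 and for miR-18a-5p without NXT-Exo 3.

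**Figure D5:**
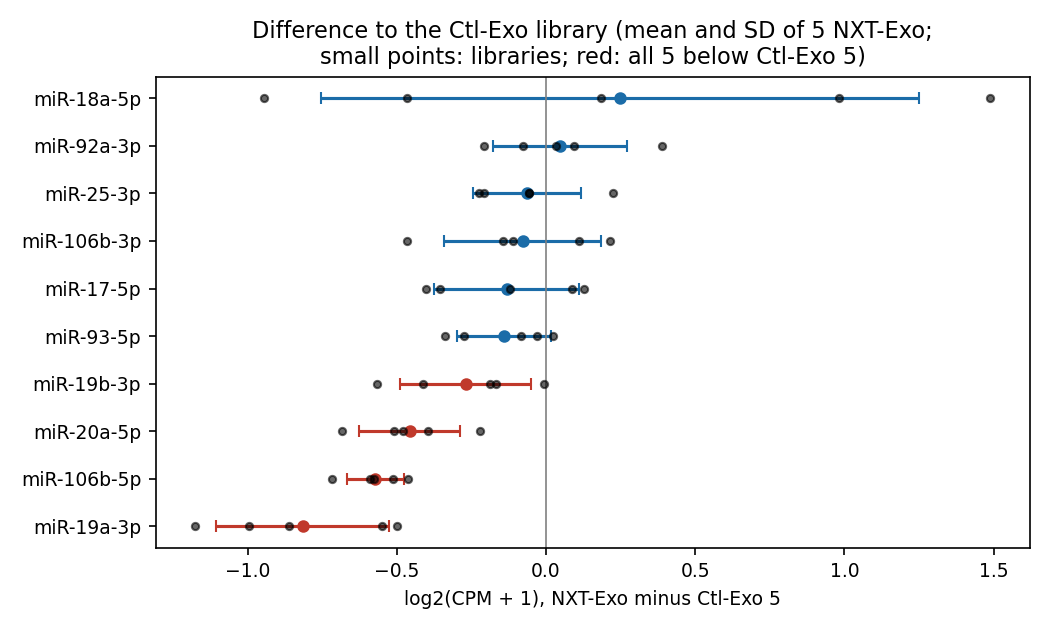
Difference in log2(CPM + 1) between NXT-Exo and Ctl-Exo 5 (horizontal axis) for each of the 10 members, as mean and SD of the 5 NXT-Exo libraries with each library as a small point. The 4 members in red (miR-19a-3p, miR-106b-5p, miR-20a-5p and miR-19b-3p, at -0.82, -0.57, -0.46 and -0.27) have all 5 points below 0.

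Besides the members' exact sequences, the table lists 13 forms of these hairpins and of the X-linked cluster without the rat prefix. Of these, 8 equal a rat miRNA with 2 further bases at the 3′ end. In the 7 whose hairpin sequence was at hand, the whole extended form was not found in the hairpin. The added bases therefore did not both match it, though the first of them may. For miR-106-y the sequence of the hairpin Mir106b was not at hand. The largest was miR-92-y, miR-92a-3p followed by TA, with 45093 reads or 5.08% of miR-92a-3p. miR-18-y, miR-18a-3p followed by GA, had 142 reads or 34.8% of miR-18a-3p. For miR-25-y, miR-106-y and miR-93-x, forms of miR-25-3p, miR-106b-3p and miR-93-5p, the shares were 0.33%, 2.41% and 1.78%. None of the 24 other listed forms of the clusters passed the edgeR test (adjusted p of 0.81 to 0.99).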

How the data were processed

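Small RNA libraries of serum exosomes (TruSeq small RNA kit) were filtered by the authors with ACGT101-miR, and the authors deposited raw read counts per miRNA sequence and library. The authors also deposited TPM values, which are the count times a constant per library (0.01 where a count is 0) and were used here as 1 alternative scaling. The submitters' processing notes name Rnor 6.0. The aligner and the treatment of shared reads are not given in the sources used here. A further 8 columns (counts and TPM of further control libraries) did not enter any step.

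Samples were grouped by their labels. Counts were scaled with TMM factors (0.932 to 1.09) and tested over 865 miRNAs with edgeR 4.0.16 (quasi-likelihood, Benjamini-Hochberg adjustment) in R 4.3.3, with no filter, and with DESeq2 1.42.0 as an alternative. Levels are CPM, compared as log2(CPM + 1). Ratios of members were taken from the counts with 0.5 added to each and tested by exact sign-flip permutation over the 6 libraries, and correlations by exact permutation, both two-sided and adjusted over the 45 pairs. For r without the 2 farthest libraries, distance was taken from the median of 1 miRNA of the pair only. That miRNA was the first in the order of the sequences above. Leaving these libraries out narrows the range, which can change r by itself. Counting SDs of log2 ratios assume Poisson reads. The edgeR fit gives no SE, so the SE printed is the absolute log2 difference divided by the square root of the F statistic. Shares and Ctl-Exo levels have 95% Wilson intervals, which cover counting error only. Python 3.11.15 with numpy 2.4.6, pandas 2.3.3, scipy 1.17.1 and matplotlib 3.10.9 was used. The edgeR, sign-flip and Pearson permutation tests were tried on simulated data first, whereas DESeq2 and the Spearman test were not. The miRNAs named are the 10 members, the other strands and forms of their hairpins and the miRNAs that share a seed with them. Also named are, for each cluster, the 5 of least varying ratio to the geometric mean of its members with at least 100 reads on average. Blood and liver lists were summed whole, and the red blood cell list also without miR-486. The members and lists were chosen with earlier results of these data known. Alternatives were other scalings (listed total, median of ratios, TPM), pseudocounts, minimum reads, Spearman correlation and leaving out each NXT-Exo library.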

Additional observations from a re-analysis of the deposited data

How the results depend on the processing

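No paired analysis was possible because 1 replicate number (5) is common to both groups. No member was called by edgeR or DESeq2, and none was 2-fold apart with Ctl-Exo 5 outside the NXT-Exo range, under any alternative tried (of all miRNAs, edgeR called 1, no member, without NXT-Exo replicate 2), with the adjusted p of miR-20a-5p at 0.691 to 0.982. The number of members with Ctl-Exo 5 outside the range was 4 or 5. Without each library in turn, 43 pairs had the same order in every library (scaling cannot change an order within a library). The median SD of log2 ratio in miR-17-92 moved from 0.361 to 0.165 and the median Pearson r from 0.45 to 0.748 with members of at least 100 reads on average (for r, chosen after seeing the data), because miR-18a-5p and miR-19a-3p were left out. Without 1 library each, the median SD was 0.301 to 0.401 in miR-17-92, 0.169 to 0.211 in miR-106b-25 and 0.269 to 0.366 between them, and the median r 0.319 to 0.729, 0.364 to 0.698 and -0.150 to 0.365. The median r between clusters was 0.016 with TMM factors and -0.130 with the listed total. Of 120 log2 differences of members under the alternatives, 3 changed sign, each when 1 NXT-Exo library was left out. The difference of miR-19a-3p shrank to -0.443 with a pseudocount of 10 CPM. With 1 Ctl-Exo library, spread among control rats is not measured, and miR-18a-5p and miR-19a-3p, at 3 to 45 reads a library, are limited by counting.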
